A study of Homo sapiens with 4 samples.

Results

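The circadian clock genes were examined in HCT116, a human colon cancer cell line in long use, after exposure to the piperine derivative HJ-4 or to its vehicle DMSO. The 10 genes were taken by name from the 20263 gene identifiers of the count table: the activators CLOCK and BMAL1, the repressors PER1, PER2, PER3 and CRY2, the REV-ERB genes NR1D1 and NR1D2, and the PAR bZIP genes DBP and TEF. All 10 were in the table and passed the filter on low counts. The HJ-4 group held 2 libraries from cells given 32 µM HJ-4 for 24 h, and the DMSO group held 2 libraries from cells given 0.1% DMSO for 24 h. Both groups carried the genotype labelled WT, and a figure legend of the study names a lower HJ-4 dose than the labels do. The study's methods call the replicates biological and speak of triplicates, while 2 libraries a group were analysed here. The labels do not say which culture each library came from, so the p-values measure the spread between these libraries. Neither the labels nor the methods describe a step that synchronized the cells or the hour of harvest. The comparison therefore covers 24 h of exposure only, and gives no phase of the clock.

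In mammalian cells the proteins CLOCK and BMAL1 bind E-box elements as a pair and switch on the PER and CRY genes, whose proteins return to the nucleus and inhibit that pair. A second loop runs through REV-ERBα and REV-ERBβ, the products of NR1D1 and NR1D2, which repress BMAL1 and other genes with ROR elements. The PAR bZIP factors DBP and TEF are outputs of the clock that bind D-box elements and pass the rhythm on to genes of metabolism. In a running clock the E-box genes and BMAL1 peak at opposite phases, and many cancer lines keep only a weak rhythm.

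The REV-ERB genes, PER1, DBP and TEF lay at higher levels with HJ-4, CRY2 and PER2 at lower levels, and CLOCK and BMAL1 close to their DMSO levels. With edgeR's quasi-likelihood test, 0 of the 10 clock genes reached an adjusted p under 0.05, a threshold that 0.0498% of the 14044 genes tested passed. At an unadjusted p under 0.05 the test gave 5 clock genes higher with HJ-4 (NR1D1, NR1D2, DBP, PER1 and TEF) and 2 lower (CRY2 and PER2). Of all genes tested, 7.93% were higher and 7.93% lower at that p. DESeq2's Wald test passed 4 clock genes as higher (NR1D1, NR1D2, DBP and PER1) and CRY2 as lower at an adjusted p of 0.05. Over all genes with an adjusted p in DESeq2, 2.46% were higher and 1.84% lower. The limma-voom test passed none of the 10. The median log2 fold change of the 10 genes was 0.33, and that of all genes tested was 0.00. In size, regardless of sign, the median was 0.44 for the clock genes and 0.17 for all genes. In bulk RNA, fewer cells expressing a gene and less RNA per cell cannot be told apart.

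**Figure D1:**
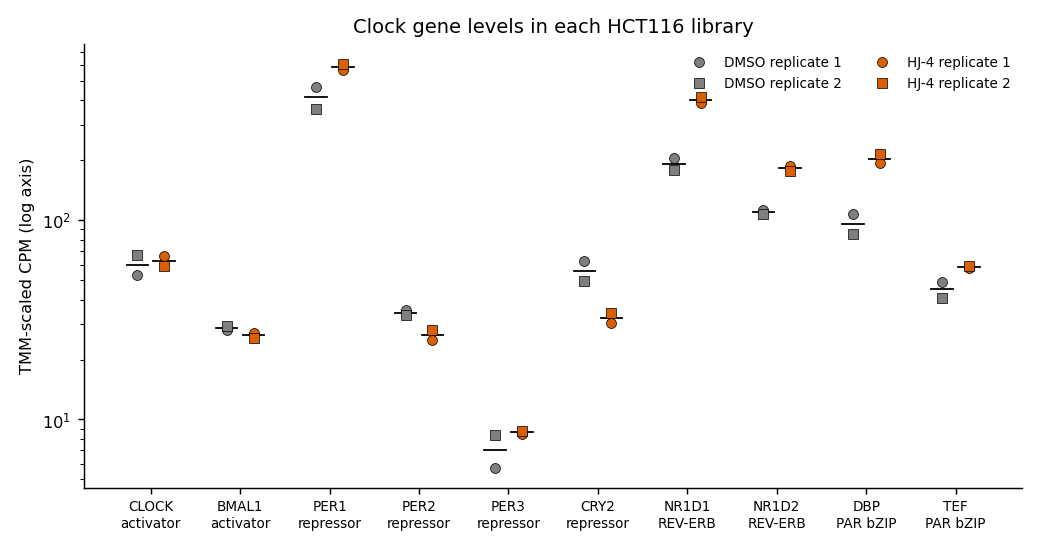
TMM-scaled CPM (log axis) of the 10 clock genes in each DMSO (grey) and HJ-4 (orange) library. Circles are replicate 1, squares replicate 2 and horizontal lines group means. NR1D1 sits at 179 to 206 CPM with DMSO and at 388 to 416 CPM with HJ-4, while the CLOCK libraries of both groups overlap.

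NR1D1 encodes the nuclear receptor REV-ERBα, a repressor that binds ROR elements and is itself an E-box target. In CPM, here the read count divided by the TMM-scaled library size, it was at 206 and 179 with DMSO and at 388 and 416 with HJ-4. Both HJ-4 libraries were above both DMSO libraries, by 0.91 on the log2 scale at the nearest pair. HJ-4 over DMSO, this was a difference of 1.06 on the log2 scale (standard error, SE, 0.10, edgeR adjusted p = 0.079), or 2.09-fold. Only 2.23% of all genes tested had a larger log2 fold change in size. NR1D2 encodes REV-ERBβ, which shares targets with REV-ERBα. It was at 112 and 108 CPM with DMSO and at 187 and 177 CPM with HJ-4. Here the libraries of each group lay close together, and the groups were apart by 0.66 on the log2 scale. NR1D2 had a log2 fold change of 0.73 (SE 0.08, edgeR adjusted p = 0.086). With DESeq2 the adjusted p was 9.9e-15 for NR1D1 and 2.8e-10 for NR1D2. The log2 fold change of NR1D1 in edgeR was 1.17 without DMSO replicate 1 and 0.96 without DMSO replicate 2. It was 1.13 without HJ-4 replicate 1 and 1.00 without HJ-4 replicate 2. For NR1D2 the values were 0.76, 0.69, 0.70 and 0.75 in the same order.

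NR1D1 lies on the minus strand at chr17:40092793-40100589 (GRCh38, GENCODE version 44). Its exons share 473 bases, 18% of their length, with exons of THRA, the thyroid hormone receptor alpha gene on the opposite strand. The sources used here do not give whether counting used strand, so reads of the shared bases may not be told apart. THRA was at 78.4 and 69.2 CPM with DMSO and at 74.2 and 52.0 CPM with HJ-4. Its groups overlapped, with a log2 fold change of -0.23 (SE 0.19, edgeR adjusted p = 0.59), opposite in sign to that of NR1D1. NR1D2 lies at chr3:23945286-23980617 and shares no exonic base with its opposite-strand neighbour NKIRAS1, whose log2 fold change was 0.24 (edgeR adjusted p = 0.47).

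DBP encodes an activator of D-box genes and is among the best known direct outputs of the CLOCK and BMAL1 pair. The DMSO libraries held 107 and 85.2 CPM of it, and the HJ-4 libraries 193 and 215 CPM. The groups did not overlap, with a gap of 0.85 on the log2 scale between the nearest libraries. At 1.09, its log2 fold change was the largest of the 10 genes (SE 0.14, adjusted p = 0.10 by edgeR and 3.7e-09 by DESeq2). Its log2 fold change was 1.26 without DMSO replicate 1 and 0.93 without DMSO replicate 2, and 1.17 and 0.99 without HJ-4 replicates 1 and 2. TEF, the thyrotroph embryonic factor gene of the same family, was at 49.0 and 40.9 CPM with DMSO and at 57.3 and 59.1 CPM with HJ-4. Its groups were also apart, by 0.23 on the log2 scale. TEF had a log2 fold change of 0.37 (SE 0.12, edgeR adjusted p = 0.26), and the difference between DBP and TEF was not tested. The value for TEF was 0.25 without DMSO replicate 2 and 0.51 without DMSO replicate 1. HLF, the remaining PAR bZIP gene, was at 6.53 and 5.25 CPM with DMSO and at 11.0 and 5.96 CPM with HJ-4. The HJ-4 libraries of HLF differed by more than the DMSO libraries, and the groups overlapped.

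DBP lies on the minus strand at chr19:48630030-48637379, where 661 of its exonic bases, 10.2%, overlap exons of the sphingosine kinase gene SPHK2. SPHK2 was at 10.9 and 8.07 CPM with DMSO and at 7.22 and 9.11 CPM with HJ-4, with overlapping groups and a log2 fold change of -0.22 (edgeR adjusted p = 0.64). TEF at chr22:41367333-41399326 overlapped no gene of the count table.

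PER1 and PER2 differed in opposite directions. PER1 encodes the PERIOD protein whose gene also answers acutely to cAMP and glucocorticoid signals. It was at 465 and 363 CPM with DMSO and at 568 and 609 CPM with HJ-4. The groups were separate, and the DMSO libraries were further from each other than the HJ-4 libraries. Its log2 fold change was 0.51 (SE 0.14, adjusted p = 0.23 by edgeR and 0.034 by DESeq2). The exons of PER1 share 30 bases, 0.43%, with ENSG00000263620, a protein-coding gene on the same strand that had at most 8 counts in a library. PER2, whose protein is a rate-limiting part of the repressor complex, was at 35.4 and 33.4 CPM with DMSO and at 25.2 and 28.2 CPM with HJ-4. Both HJ-4 libraries were below both DMSO libraries. PER2 had a log2 fold change of -0.37 (SE 0.11, adjusted p = 0.24 by edgeR and 0.16 by DESeq2).

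PER3, the third PERIOD gene, had the fewest counts of the 10 and was at 5.73 and 8.31 CPM with DMSO and at 8.48 and 8.72 CPM with HJ-4. It had 180 and 250 counts in the DMSO libraries, with exact Poisson 95% intervals of 155 to 208 and 220 to 283 that cover counting error only. The intervals of the DMSO libraries did not overlap, and the higher DMSO library reached nearly to the HJ-4 libraries, which had 289 and 291 counts. On the log2 scale the difference was 0.29 (SE 0.21, edgeR adjusted p = 0.53). It ranged from 0.05 without DMSO replicate 1 to 0.58 without DMSO replicate 2. The exons of PER3 share 868 bases, 10.7%, with the urotensin gene UTS2 on the opposite strand, which held 17 to 48 counts a library and had a log2 fold change of 0.95 (edgeR adjusted p = 0.31), of the same sign.

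CRY2, a cryptochrome gene whose protein binds the CLOCK and BMAL1 pair and blocks it, had the largest difference downwards of the 10 genes. It was at 62.2 and 49.5 CPM with DMSO and at 30.7 and 34.2 CPM with HJ-4. The groups were apart by 0.53 on the log2 scale. CRY2 had a log2 fold change of -0.78 (SE 0.15, adjusted p = 0.16 by edgeR and 0.00084 by DESeq2), which is 1.72-fold lower. CRY1, the other cryptochrome gene, was at 56.1 and 50.2 CPM with DMSO and at 42.1 and 39.1 CPM with HJ-4. Its groups were separate too, in the same direction as CRY2. For CRY1 the log2 fold change was -0.39 (SE 0.10, edgeR adjusted p = 0.23).

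The activators differed least. CLOCK encodes the DNA-binding partner of BMAL1. It was at 53.2 and 66.8 CPM with DMSO and at 66.4 and 59.0 CPM with HJ-4, so that the HJ-4 libraries lay within the DMSO range. Its log2 fold change was 0.06 (SE 0.14, edgeR adjusted p = 0.85), and the sign turned when single libraries were left out (-0.09 without DMSO replicate 1, -0.01 without HJ-4 replicate 1). BMAL1, which the REV-ERB proteins repress, was at 28.2 and 29.3 CPM with DMSO and at 27.2 and 25.7 CPM with HJ-4. Both HJ-4 libraries were lower, by 0.05 on the log2 scale at the nearest pair. BMAL1 had a log2 fold change of -0.12 (SE 0.10, edgeR adjusted p = 0.57). CLOCK shares 76 exonic bases, 0.66%, with TMEM165 on the opposite strand.

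**Figure D2:**
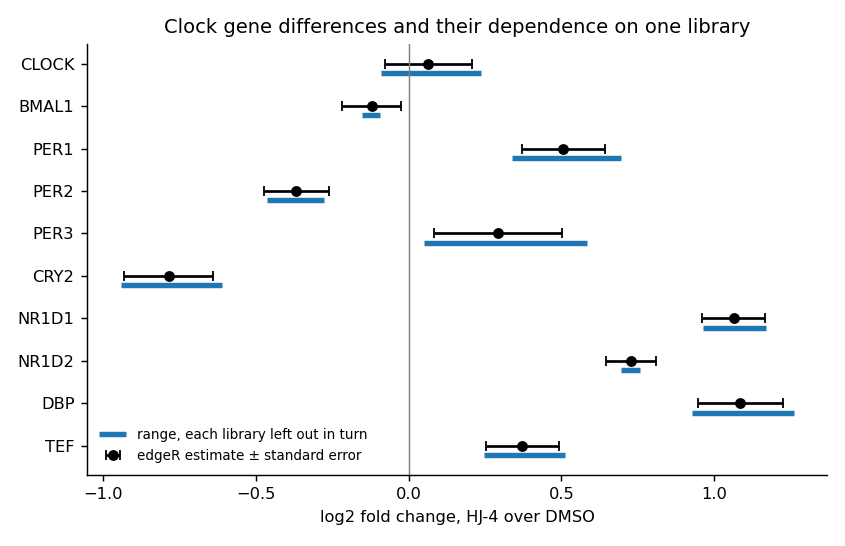
Log2 fold change (HJ-4 over DMSO, horizontal axis) of the 10 clock genes with its standard error (black), and the range of the estimates when each of the 4 libraries was left out in turn (blue). The CLOCK range crosses 0, and that of PER3 runs from 0.05 to 0.58.

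In all, 6 of the 10 genes had both HJ-4 libraries above both DMSO libraries (NR1D1, NR1D2, DBP, TEF, PER1 and PER3) and 3 had them below (CRY2, PER2 and BMAL1). Of all genes tested, 25.2% were above and 25.6% below in this way. For PER3 and BMAL1 the gap was 0.03 and 0.05 on the log2 scale, smaller than the distance between libraries of 1 group. The DMSO libraries differed from each other more for the clock genes than for the other genes. The median difference in size between DMSO libraries was 0.30 on the log2 scale over the 10 genes and 0.16 over all genes, against 0.10 and 0.11 between HJ-4 libraries. DMSO replicate 1 was above replicate 2 for 7 of the 10 clock genes and for 54.0% of all genes. Among those 7 were CRY2 and PER2, which lay lower with HJ-4, as well as PER1, NR1D1, NR1D2, DBP and TEF. The part of this spread in the results was not tested.

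**Figure D3:**
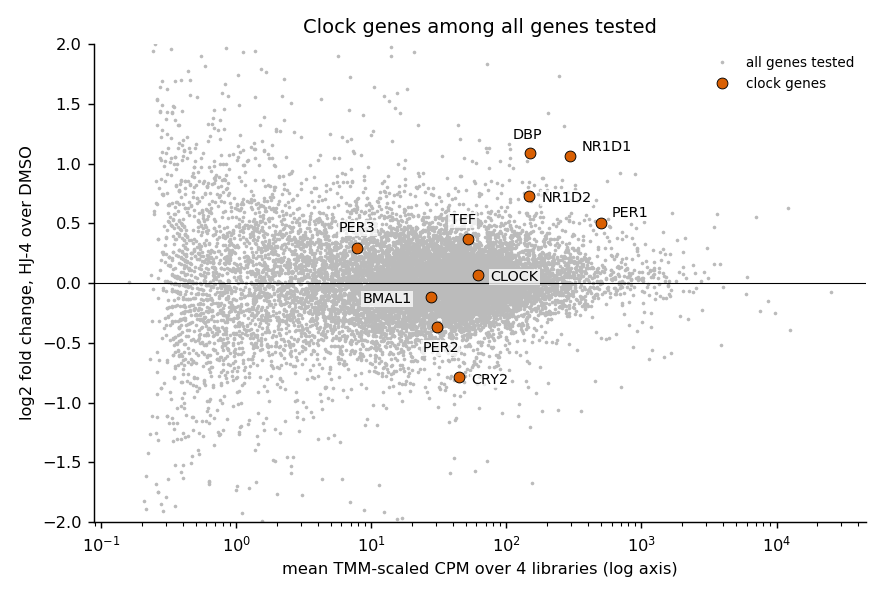
Log2 fold change (HJ-4 over DMSO) against mean TMM-scaled CPM over the 4 libraries (log axis) for all 14044 genes tested (grey) and the 10 clock genes (orange). The vertical axis is limited to 2 in size, which leaves out 50 genes. NR1D1 and DBP lie above most genes of similar level, and CLOCK and BMAL1 lie within the band around 0.

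Ratios of clock genes within a library do not depend on how the libraries were scaled. The log2 ratio of NR1D1 to BMAL1, which sets a repressor against its target, was 2.87 and 2.61 with DMSO and 3.83 and 4.02 with HJ-4. The ratio of DBP to BMAL1 was 1.93 and 1.54 with DMSO and 2.83 and 3.07 with HJ-4. Both ratios were thus higher in each HJ-4 library than in each DMSO library, by 1.19 and 1.21 between the group means. The ratio of PER2 to BMAL1 lay the other way, at 0.33 and 0.19 with DMSO and at -0.11 and 0.14 with HJ-4, with the nearest libraries of the groups closer than the HJ-4 libraries were to each other.
PER1 against PER2 stood at 3.71 and 3.44 with DMSO and at 4.50 and 4.43 with HJ-4, so the relation between these repressors was shifted in both HJ-4 libraries. CRY1 against CRY2 was at -0.15 and 0.02 with DMSO and at 0.46 and 0.19 with HJ-4. For the REV-ERB genes, NR1D1 against NR1D2 was at 0.87 and 0.73 with DMSO and at 1.05 and 1.23 with HJ-4. The ratios other than those to BMAL1 were chosen after their values were seen, and a ratio shows unequal levels without saying which gene moved.

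**Figure D4:**
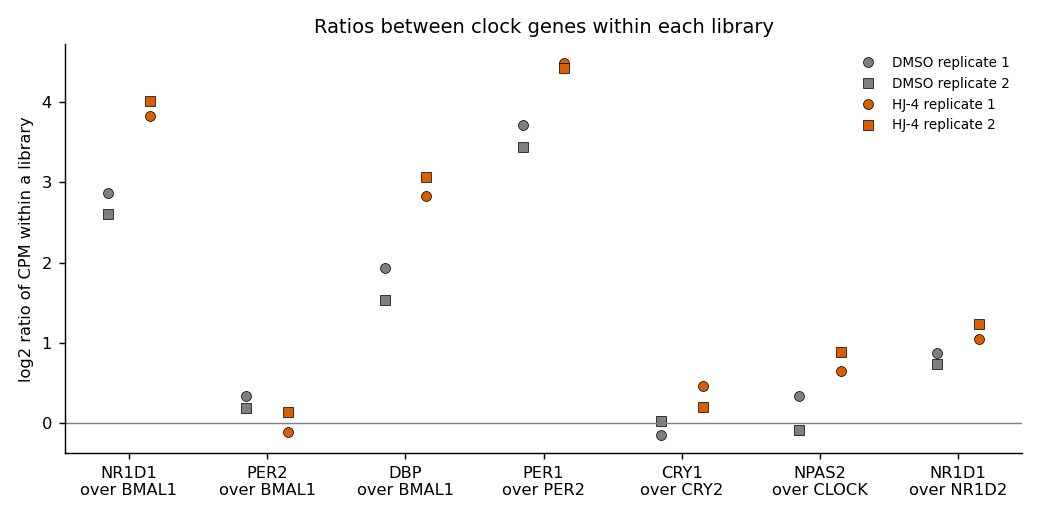
Log2 ratio of CPM between pairs of clock genes within each library, DMSO in grey and HJ-4 in orange, circles for replicate 1 and squares for replicate 2. NR1D1 over BMAL1 lies at 2.61 to 2.87 with DMSO and at 3.83 to 4.02 with HJ-4.

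Per kilobase of annotated exon, NR1D1 and PER1 were the most abundant clock genes in both groups. With DMSO the mean level was 73.2 CPM per kilobase for NR1D1 and 59.2 for PER1. These were followed by NR1D2 at 19.0, DBP at 14.8, TEF at 9.56 and CRY2 at 9.01. CLOCK at 5.20, PER2 at 4.85 and BMAL1 at 4.15 came next, and PER3 was lowest at 0.86. The libraries of TEF and CRY2 overlapped in this order, as did those of CLOCK and PER2. With HJ-4 the levels per kilobase were 153 for NR1D1 and 84.0 for PER1, and DBP and NR1D2, both at 31.4, were not apart beyond their spread. CRY2 at 5.23 stood level with CLOCK at 5.44, and PER2 at 3.76 stood level with BMAL1 at 3.81. The lengths are the union of all annotated exons (6485 bases for DBP and 2630 for NR1D1), which may be longer than the transcripts these cells make. The order of the genes, with the place of DBP in it, depends on these lengths.

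The sequence just upstream of the start site was searched for clock elements, and bases from the start site on were not. It was read from RefSeq promoters on GRCh38.p14, which matched all 10 genes, over the 250 bases before each start. For each gene only the first listed promoter was used, so other start sites of a gene were not searched. The upstream sequences of NR1D1, NR1D2 and DBP are shown since these 3 genes had the largest differences upwards, in lower case with matched elements in capitals (NR1D1 chr17:40100590-40100839, minus strand; NR1D2 chr3:23945036-23945285, plus strand; DBP chr19:48637380-48637629, minus strand).
NR1D1: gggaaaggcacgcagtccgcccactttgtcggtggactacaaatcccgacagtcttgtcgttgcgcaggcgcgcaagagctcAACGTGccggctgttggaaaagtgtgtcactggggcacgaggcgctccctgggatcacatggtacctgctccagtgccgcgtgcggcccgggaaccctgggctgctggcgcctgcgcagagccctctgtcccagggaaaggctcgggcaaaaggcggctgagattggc
NR1D2: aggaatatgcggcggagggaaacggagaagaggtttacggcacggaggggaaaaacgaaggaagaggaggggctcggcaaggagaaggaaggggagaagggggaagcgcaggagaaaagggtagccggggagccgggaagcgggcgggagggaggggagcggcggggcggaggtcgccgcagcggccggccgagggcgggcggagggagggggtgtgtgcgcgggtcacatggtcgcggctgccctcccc
DBP: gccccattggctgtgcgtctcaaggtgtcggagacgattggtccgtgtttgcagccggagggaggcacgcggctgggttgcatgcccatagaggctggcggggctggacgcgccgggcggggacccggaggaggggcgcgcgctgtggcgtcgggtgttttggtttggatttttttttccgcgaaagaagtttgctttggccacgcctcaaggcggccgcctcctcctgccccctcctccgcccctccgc

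The elements searched on both strands were the E-box CACGTG, the variant E′-box CACGTT, the D-box TTATGTAA, its relaxed form TTATNTAA, the ROR element core TAGGTCA or TGGGTCA, and the cAMP element TGACGTCA. The E-box was found upstream of PER1 and TEF and in 6.34% of all 35116 promoters of that length, each counted separately. The E′-box was found upstream of NR1D1 and PER2 and in 4.55% of all promoters. The D-box TTATGTAA was found only upstream of PER3 among the 10, and in 0.834% of all promoters. The relaxed form, which includes the D-box itself, was found upstream of PER3 and TEF and in 3.09% of all promoters. The ROR core and the cAMP element had no match in these windows, and 4.82% and 1.65% of all promoters held them. A match is a run of letters, not a shown binding site. Elements further upstream, from the start site on or at other start sites were not searched, so a missing match does not show that a gene lacks an element. The matches lie 173 (PER1), 195 (TEF), 197 (PER2), 168 (NR1D1) and 177 (PER3) bases before the start, and are shown with the bases around them to set the E-boxes, the E′-boxes and the D-box side by side, with the element in capitals.
PER1 E-box (chr17:8152560-8152589, minus strand): agcacccaggtcCACGTGcgcccgtgtgtg
TEF E-box (chr22:41367248-41367277, plus strand): gcgcgacagctcCACGTGctgcagctggcg
PER2 E′-box (chr2:238288790-238288819, minus strand): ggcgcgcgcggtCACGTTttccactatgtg
NR1D1 E′-box, read on the other strand (chr17:40100740-40100769, minus strand): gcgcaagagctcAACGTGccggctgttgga
PER3 D-box (chr1:7784103-7784132, plus strand): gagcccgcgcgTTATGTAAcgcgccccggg
Genes with a matched element lay on both sides of the comparison, PER1, TEF, NR1D1 and PER3 higher and PER2 lower with HJ-4. For PER3 the gap at the nearest pair of libraries was only 0.03 on the log2 scale. The windows of NR1D2 and DBP held no match.

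Of 12 further genes of the clock loops, 10 passed the filter on low counts, 7 with a positive and 3 with a negative log2 fold change, and a median of 0.14. At an unadjusted p under 0.05 there were 2 higher (NPAS2 and BHLHE40) and 2 lower (CRY1 and BMAL2). The shares of all genes tested at that p were 7.93% higher and 7.93% lower. None passed the adjusted threshold in edgeR, while DESeq2 passed NPAS2 and BHLHE40 as higher (adjusted p = 2.9e-08 and 0.0027). Among all genes with an adjusted p in DESeq2, 2.46% were higher and 1.84% lower. NPAS2, a paralogue of CLOCK that can take its place beside BMAL1, was at 67.0 and 62.9 CPM with DMSO and at 104 and 109 CPM with HJ-4. Its groups were apart, and those of CLOCK overlapped. NPAS2 had a log2 fold change of 0.71 (SE 0.08, edgeR adjusted p = 0.088). The log2 ratio of NPAS2 to CLOCK was 0.33 and -0.09 with DMSO and 0.64 and 0.89 with HJ-4, higher in each HJ-4 library.
BHLHE40 encodes the repressor DEC1, which competes for E-boxes. It was at 512 and 444 CPM with DMSO and at 654 and 679 CPM with HJ-4, with separate groups and a log2 fold change of 0.48 (SE 0.10, edgeR adjusted p = 0.17). BMAL2, the paralogue of BMAL1, was at 16.0 and 24.9 CPM with DMSO and at 11.2 and 11.7 CPM with HJ-4. The DMSO libraries of BMAL2 were far apart, and both lay above those with HJ-4 (log2 fold change -0.84, SE 0.23, edgeR adjusted p = 0.23). RORA and RORB, activators that bind the same elements as the REV-ERB proteins, had no more than 10 counts in any library and so were not tested.

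**Figure D5:**
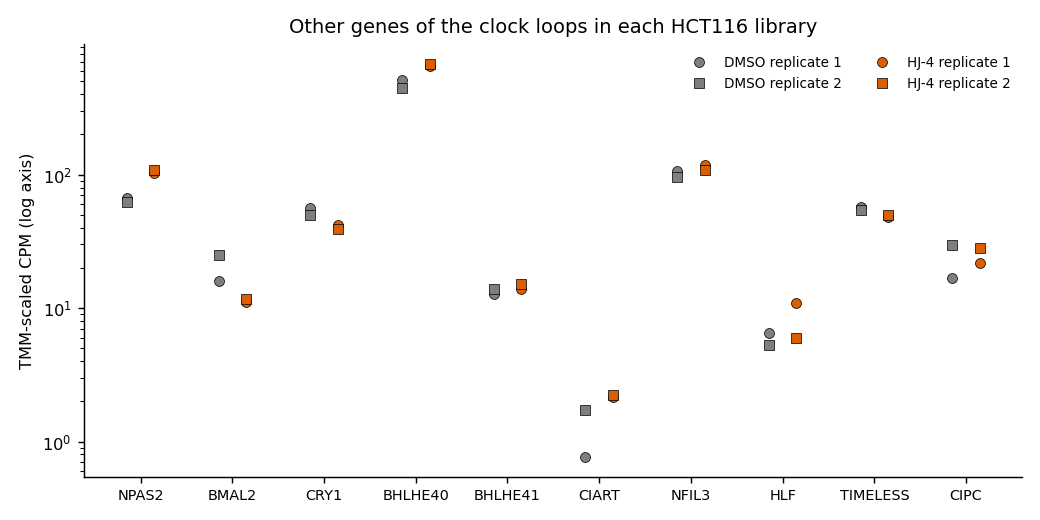
TMM-scaled CPM (log axis) of the 10 further clock loop genes that passed the filter, in each DMSO (grey) and HJ-4 (orange) library, circles for replicate 1 and squares for replicate 2. NPAS2 lies at 62.9 to 67.0 CPM with DMSO and at 104 to 109 CPM with HJ-4, and BMAL2 at 16.0 to 24.9 CPM with DMSO and at 11.2 to 11.7 CPM with HJ-4.

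The next list held 18 genes of kinases, phosphatases, ubiquitin ligases and ubiquitin-removing enzymes that act on clock proteins. Of these, 1 had an unadjusted p under 0.05 and was higher, where 7.93% of all genes were higher and 7.93% lower. The log2 fold changes were positive for 10 and negative for 8 of them, with a median of 0.03. Both HJ-4 libraries were above both DMSO libraries for 5 of the 18 and below them for 6, against 25.2% and 25.6% of all genes. None passed the adjusted threshold in edgeR or DESeq2. The gene at that p was FBXW11, a subunit of a ubiquitin ligase that acts on PER proteins, at 82.1 and 84.5 CPM with DMSO and at 103 and 97.4 CPM with HJ-4 (log2 fold change 0.26, edgeR adjusted p = 0.25). Of 17 tested cofactors of the clock complexes, 3 had an unadjusted p under 0.05, all of them lower, and the median was 0.02. DESeq2 passed HDAC3 and KMT2A as lower (adjusted p = 0.041 and 0.023), as it did 1.84% of all genes with an adjusted p. The edgeR test passed none at the adjusted threshold. HDAC3, the deacetylase that the REV-ERB proteins recruit with NCOR1, was at 144 and 135 CPM with DMSO and at 106 and 113 CPM with HJ-4. Both HJ-4 libraries were lower (log2 fold change -0.35, SE 0.09, edgeR adjusted p = 0.21). KMT2A and SFPQ had log2 fold changes of -0.46 and -0.27 (edgeR adjusted p = 0.195 and 0.288).

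Of 12 genes of signals that reset the clock, 5 had an unadjusted p under 0.05, 3 of them higher and 2 lower. At that p, 7.93% of all genes tested were higher and 7.93% lower. The median log2 fold change of the 12 was 0.04. DESeq2 passed TSC22D3 as higher (adjusted p = 2.3e-15), as it did 2.46% of all genes with an adjusted p. In edgeR none passed the adjusted threshold. TSC22D3, a glucocorticoid-induced gene also known as GILZ, was at 132 and 94.7 CPM with DMSO and at 348 and 408 CPM with HJ-4. The groups did not overlap, and the log2 fold change of 1.73 (SE 0.19, edgeR adjusted p = 0.0795) exceeded that of any of the 10 clock genes. Other genes of the list lay in both directions. FKBP5, another glucocorticoid-induced gene, had a log2 fold change of -0.31 and NR3C1, the glucocorticoid receptor gene, one of -0.42 (edgeR adjusted p = 0.25 for both). NR4A1, an immediate early gene, had one of 0.43 (edgeR adjusted p = 0.24). KLF9, the remaining gene at the unadjusted threshold, had one of 0.26 (edgeR adjusted p = 0.26), with both HJ-4 libraries above both DMSO libraries.

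The 4 libraries held 29769568 to 34359889 counts, of which mitochondrially encoded genes took 6.01% to 7.73%. Of 8 epithelial markers, EPCAM, CDH1, KRT8, KRT18 and KRT19 were expressed, with a summed level of all 8 of 3967 to 4461 CPM with DMSO and 4182 to 4373 CPM with HJ-4. VIL1, CEACAM5 and CEACAM6 had at most 10 counts in each library. Among the 8 markers, CDH1 was higher with HJ-4 by DESeq2 (adjusted p = 0.030) and at an unadjusted p under 0.05 in edgeR, where its adjusted p was 0.20. Of 11 markers of immune, endothelial, stromal, red blood and liver cells, 8 had at most 10 counts in each library, among them PTPRC, CD3E, PECAM1 and ALB. The summed level of the 11 was 71.5 to 76.9 CPM with DMSO and 75.9 to 81.0 CPM with HJ-4, most of it COL1A1 at 61.0 and 59.5 CPM on average. ACTA2, at 11.8 and 17.1 CPM on average, was higher at an unadjusted p under 0.05.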

How the data were processed

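Gene counts of 4 HCT116 libraries, 2 with DMSO and 2 with HJ-4, were analysed. The authors deposited raw counts per Ensembl gene, with no normalization. The study's methods name STAR and featureCounts on GRCh38, whereas HISAT2, bedtools and RSEM appear in the processing notes of the submitters. The tool behind the table, its annotation and its strand setting are not given in the sources used here. Symbols, loci, exon lengths and overlaps came from GENCODE version 44 (20148 of 20263 identifiers matched, and the 115 others held at most 0.053% of a library), and promoter sequences from RefSeq on GRCh38.p14.

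Genes kept by filterByExpr (14044) were scaled by TMM and tested with edgeR 4.0.16 (glmQLFit and glmQLFTest, condition as the only term, R 4.3.3), with Benjamini-Hochberg adjustment over all genes tested. The common dispersion gave a biological coefficient of variation of 0.157. Standard errors were derived from the F statistics. The study used limma, and edgeR was chosen because the values are counts. Alternatives were DESeq2 1.42.0, limma-voom (limma 3.58.1), other scalings and filters, robust fitting, a replicate block and leaving out each library. The 2 libraries of each group were not copies of each other, since their counts were further apart than counting error allows (chi-square divided by its degrees of freedom 37.9 with DMSO, 22.8 with HJ-4).

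The members, the gene lists and the rule for naming genes were chosen with earlier results of these data known. Named were all 10 members, up to 4 genes of each further list with the smallest unadjusted p under 0.05, and genes of the count table overlapping a member, with the other genes of a list given by counts. A further clock loop gene was left out of its list and is not reported here. HLF, KLF9, RORA, RORB and single markers were named outside that rule, after their values were seen.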

Additional observations from a re-analysis of the deposited data

How the results depend on the processing

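Over 12 alternatives, 110 of the 120 estimates for single clock genes kept their direction and their side of an adjusted p of 0.05, 8 came to pass that threshold and 2 turned sign. The 2 were both CLOCK, which ranged from -0.089 to 0.24 with single libraries left out. The count of clock genes that passed was 0 in edgeR, 5 with DESeq2, 1 with robust fitting (NR1D1), and 0 to 2 when single libraries were left out. The median log2 fold change of the 10 genes moved by less than the spread between libraries under all 12 alternatives. Genes called over the whole table numbered 7 in edgeR, 12 with no filter on low counts, 570 with DESeq2, 46 with robust fitting and 0 to 88 with single libraries left out. The replicate numbers are only shared labels: over all genes the differences of replicate 1 from 2 correlated at -0.07 between the groups. With them as a replicate block 31 genes passed and 0 clock genes did. Total counts in place of TMM moved the median of all genes from 0.00 to -0.03 on the log2 scale and left the count of clock genes with separate groups at 9. With 2 libraries a group, a p that misses the threshold does not show that a gene stayed the same.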

Other observations

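A few genes of the further lists split the libraries of at least 1 group, and were chosen after their values were seen. CREB1, the gene of a transcription factor that relays cAMP signals to PER1, was at 16.8 and 16.1 CPM with DMSO and at 16.1 and 41.6 CPM with HJ-4, so that HJ-4 replicate 2 alone was high. FOS, an immediate early gene, was at 33.5 and 32.3 CPM with DMSO and at 17.7 and 29.5 CPM with HJ-4, with HJ-4 replicate 1 low. CIPC, whose protein inhibits CLOCK, was at 16.9 and 29.6 CPM with DMSO and at 21.6 and 28.3 CPM with HJ-4, higher in replicate 2 of each group. None of the 10 clock genes split the HJ-4 libraries in this way, where the largest difference was 0.17 on the log2 scale (CLOCK). Between the DMSO libraries the largest was 0.54 (PER3).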
